A study of Mus musculus with 24 samples.

Results

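A set of 10 macrophage genes of the alternative, tissue-resident and lipid-associated kind were described in mouse pancreatic tumours measured by bulk RNA sequencing. They are Spp1, Arg1, Mrc1, Cd163, Trem2, Gpnmb, Apoe, C1qa, C1qb and C1qc, chosen by gene name. They are 10 of the 54532 genes in the count table. All 10 were among the 19253 genes with enough reads to be tested. Each was also set against Adgre1, the gene of the F4/80 antigen that marks mouse macrophages in general. The 24 samples form 4 groups of 6, named LIGEL, IGEL, GEM and PBS, all collected on day 24. PBS, buffered saline, is the control. The labels leave the other abbreviations unexplained, and no agent is attached to them here. Mouse strain, tumour line and age are not given in the sources used here. Losartan priming and a nanocarrier are named in the series title. Whether each sample is a separate animal is not stated in the labels, and the p-values therefore describe the spread among these samples alone, which may be technical.

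Sample titles read muscle where the tissue label reads pancreatic tumour. The 8 skeletal muscle markers summed to between 12.2 and 325 CPM in a library, where CPM is a gene's reads scaled to a common library total, at most 0.0309% of its counts. The 12 core macrophage markers were all detected in every library, with summed levels of 1010 to 1390 CPM in LIGEL, 582 to 1590 CPM in IGEL, 846 to 1980 CPM in GEM and 786 to 1770 CPM in PBS. Libraries held 27.1 to 40.5 M counts. PBS replicate 5 stood apart, with 35% of its counts in 12 acinar genes, against at most 14.7% in any other library. The 6 libraries in count columns numbered A1 to A3, which are GEM replicates 1 to 3, IGEL replicate 1 and LIGEL replicates 1 and 2, differ in column naming from the rest, numbered A7 to A24, and hold no PBS sample.

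Macrophages in tumours range from inflammatory cells to cells that clear debris, take up lipid and dampen immunity. C1q and apolipoprotein E are made by resident and phagocytic macrophages, and C1q opens the classical complement pathway when it meets bound antibody or dying cells. Trem2 is a lipid-sensing receptor that switches on a lipid-handling programme with Gpnmb, Spp1 and Apoe among its genes. Mrc1, Cd163 and Arg1 are the classic genes of alternative activation, and Spp1 and Arg1 also mark macrophages of poorly oxygenated tumour regions.

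The members lie on 7 chromosomes (mouse build mm10). The C1q chains form a cluster of 18.7 kb on the minus strand of chromosome 4, with C1qb (ENSMUSG00000036905) at 136880129 to 136886187, C1qc (ENSMUSG00000036896) at 136889804 to 136893065 and C1qa (ENSMUSG00000036887) at 136895917 to 136898803. Trem2 (ENSMUSG00000023992) lies on chromosome 17 at 48346401 to 48354147, plus strand, and Adgre1 (ENSMUSG00000004730) on the same chromosome at 57358691 to 57483527, plus strand. Cd163 (ENSMUSG00000008845) at 124304656 to 124330527 and Gpnmb (ENSMUSG00000029816) at 49036546 to 49070929 are both on chromosome 6, plus strand. Spp1 (ENSMUSG00000029304) lies on chromosome 5 at 104435118 to 104441050, plus strand. Arg1 (ENSMUSG00000019987) lies on chromosome 10 at 24915221 to 24927484, minus strand. Mrc1 (ENSMUSG00000026712) lies on chromosome 2 at 14229392 to 14332057, plus strand, and Apoe (ENSMUSG00000002985) on chromosome 7 at 19696109 to 19699188, minus strand.

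RefSeq promoter windows (GRCm38.p6, 250 bases before to 50 after a start) were matched for 8 of the 10 members, and not for Arg1 or C1qa. The windows of 2 neighbouring C1q genes are shown because the C1q genes moved together from tumour to tumour, and that of Trem2 because it held 2 of the motifs searched. Capitals mark motif matches on either strand, and sequences run 5′ to 3′ on the strand of the gene.
C1qb, chr4:136886151-136886450, minus strand: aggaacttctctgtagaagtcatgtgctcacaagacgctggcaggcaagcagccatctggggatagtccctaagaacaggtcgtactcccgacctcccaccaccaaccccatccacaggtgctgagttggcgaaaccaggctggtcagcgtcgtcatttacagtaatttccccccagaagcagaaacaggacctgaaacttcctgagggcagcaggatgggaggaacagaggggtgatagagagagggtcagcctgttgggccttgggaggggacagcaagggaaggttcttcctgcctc
C1qc, chr4:136892865-136893164, minus strand: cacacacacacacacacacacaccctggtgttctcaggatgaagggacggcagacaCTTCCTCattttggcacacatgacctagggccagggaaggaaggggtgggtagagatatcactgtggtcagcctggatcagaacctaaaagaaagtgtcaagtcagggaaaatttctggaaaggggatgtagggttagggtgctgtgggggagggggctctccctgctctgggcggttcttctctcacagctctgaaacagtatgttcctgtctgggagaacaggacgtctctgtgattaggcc
Trem2, chr17:48346151-48346450, plus strand: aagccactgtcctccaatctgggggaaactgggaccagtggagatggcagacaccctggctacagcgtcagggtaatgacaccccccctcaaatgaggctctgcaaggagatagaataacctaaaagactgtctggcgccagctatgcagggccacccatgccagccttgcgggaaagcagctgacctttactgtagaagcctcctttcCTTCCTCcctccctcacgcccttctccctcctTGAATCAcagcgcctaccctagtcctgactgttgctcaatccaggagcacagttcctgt

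Both strands were searched for GAGGAAG, a site of the kind bound by the myeloid factor PU.1, for TGANTCA, the AP-1 site, for TGCTGAC, the core of a MAF site, and for CACGTG, the E box of the lysosomal regulators TFEB and MITF. Members are counted by gene, where any of a gene's windows may match (Spp1 has 2 and Apoe 3), while the background is a share of single windows. GAGGAAG was found in 4 of 8 members (Spp1, Mrc1, Trem2 and C1qc) and in 13.6% of all 32851 promoter windows. In Trem2 it starts 41 bases before the RefSeq start that the window is built on. In C1qc it starts 194 bases before that start, which differs from the gene boundary in the count table. TGANTCA was found in 2 of 8 members, Trem2 and Gpnmb, and in 7.81% of all promoters. TGCTGAC and CACGTG were in 0 of 8 members, and in 4.67% and 7.15% of all promoters. The matches do not overlap one another, and a match is a description of letters only.

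Per length of gene, the members formed 3 tiers over the 24 tumours. On the RPKM scale, which is CPM per kilobase of gene, Spp1, which encodes the secreted phosphoprotein osteopontin, had a median of 399 and a range of 231 to 544. Apoe followed at a median of 225 RPKM (82.7 to 477), then C1qa at 169 RPKM (62.8 to 329), C1qb at 145 RPKM (58.4 to 296) and C1qc at 68.3 RPKM (26.9 to 132). The ranges of these neighbours overlap. Arg1, the arginase that breaks down arginine, had a median of 38.1 RPKM (1.73 to 153), and Mrc1, the mannose receptor CD206, 29.2 RPKM (13.9 to 57.3). Adgre1 itself stood at 14.5 RPKM (3.83 to 42.4). The lowest tier was Gpnmb, a lysosomal glycoprotein, at 3.28 RPKM (1.25 to 9.89), Trem2 at 2.64 RPKM (1.37 to 9.59) and Cd163, the haemoglobin scavenger receptor, at 1.93 RPKM (0.458 to 7.67), whose ranges also overlap.

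**Figure D1:**
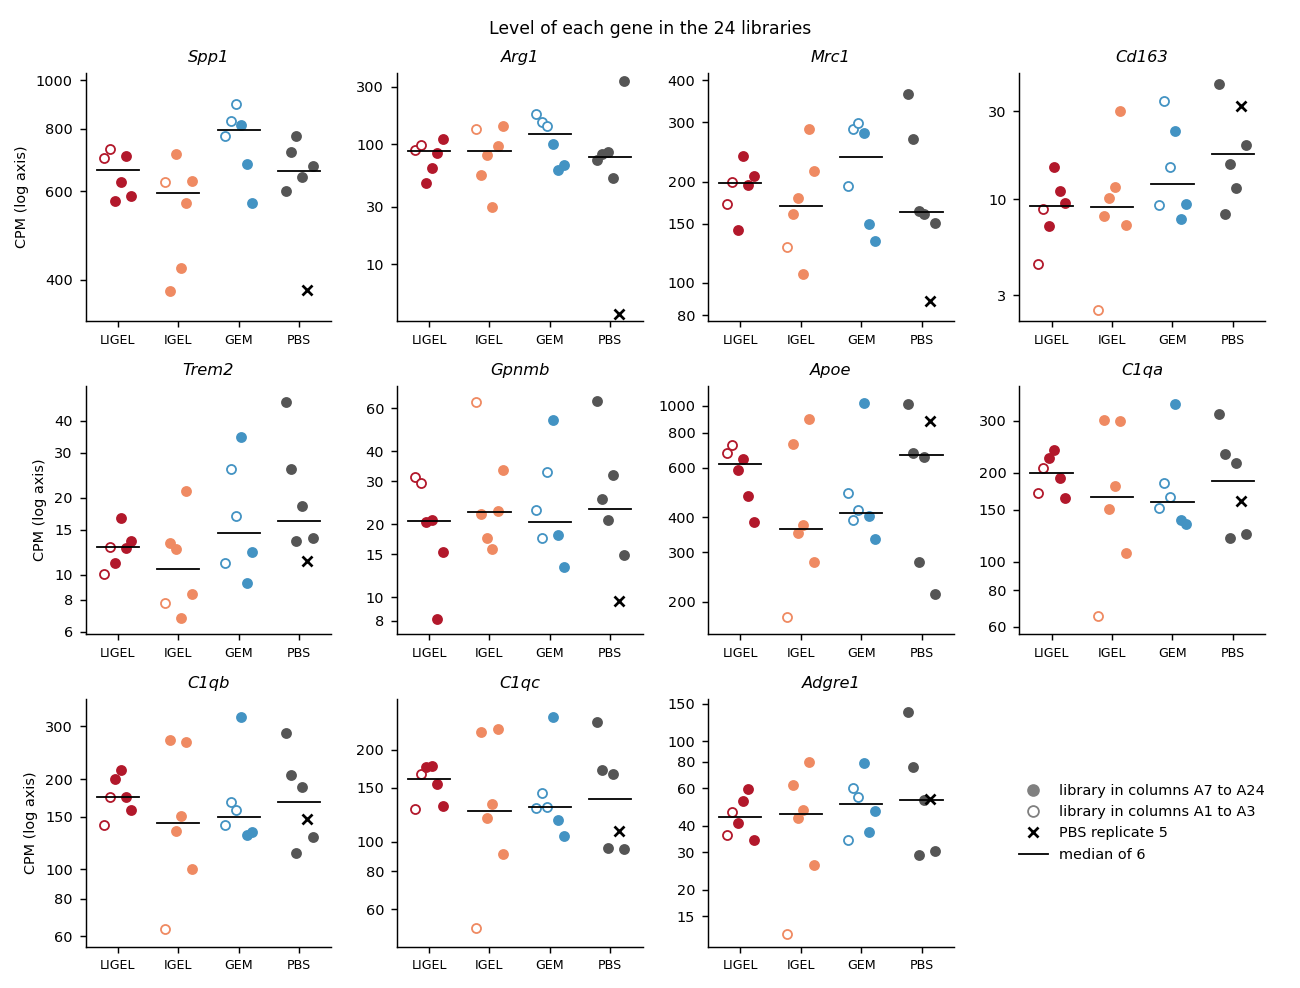
Level of each gene in every library, in CPM on a log axis, by group (LIGEL, IGEL, GEM and PBS from left to right), with a point for each library, open for columns A1 to A3, a cross for PBS replicate 5 and a bar at the group median. In all 10 genes and Adgre1 the 4 groups overlap, and Arg1 spans 3.85 to 340 CPM among the PBS tumours alone.

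Tumours varied more within groups than between them. The share of the variance of log2 CPM that lay between groups was 3.95% for C1qc at the lowest and 28.6% for Spp1 at the highest. Arg1 varied most, 88.3-fold between its lowest and highest tumour, with a standard deviation of 1.17 on the log2 scale that exceeded that of 91% of all tested genes. Spp1 varied least, 2.36-fold, with a standard deviation of 0.32, against a median of 0.45 over all tested genes. Cd163 spanned 16.7-fold, Gpnmb 7.94-fold, Trem2 7.02-fold, Apoe 5.77-fold, C1qa 5.24-fold and Mrc1 4.12-fold.

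Against PBS, no member passed the test in any treated group. Counts were tested with edgeR's quasi-likelihood test, and the threshold was an adjusted p (Benjamini-Hochberg over all 19253 genes) under 0.05. In LIGEL against PBS 0 of 10 members and 0% of all genes were called. The same was found in IGEL against PBS (0 of 10, 0%) and in GEM against PBS (0 of 10, 0%). At an unadjusted edgeR p under 0.05 there were 2 members (Cd163 and Trem2) and 20.5% of all genes in LIGEL against PBS, 1 member (Trem2) and 15% of genes in IGEL, and 0 members and 4.81% of genes in GEM. DESeq2 called 0 members in each, with 6.38% of all genes called in LIGEL, 0.441% in IGEL and 0% in GEM against PBS. Limma voom with sample quality weights called 0 members too, with 3.78% of all genes in LIGEL, 1.99% in IGEL and 0.343% in GEM. Without the acinar-rich PBS replicate 5, edgeR called 0 members against 0.886% of all genes in LIGEL, 0.0922% in IGEL and 0% in GEM. By sign, 3 members were positive and 7 negative in LIGEL (median log2 change -0.07, against -0.03 over all genes), 1 and 9 in IGEL (-0.17, against -0.02) and 3 and 7 in GEM (-0.04, against -0.02). Without PBS replicate 5 they were 2 and 8 in LIGEL (-0.13), 0 and 10 in IGEL (-0.29) and 2 and 8 in GEM (-0.13). Without columns A1 to A3 they were 3 and 7 in LIGEL (-0.15), 3 and 7 in IGEL (-0.26) and 5 and 5 in GEM (-0.04). As the same PBS tumours serve all 3 comparisons, these counts are not independent of one another.

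**Figure D2:**
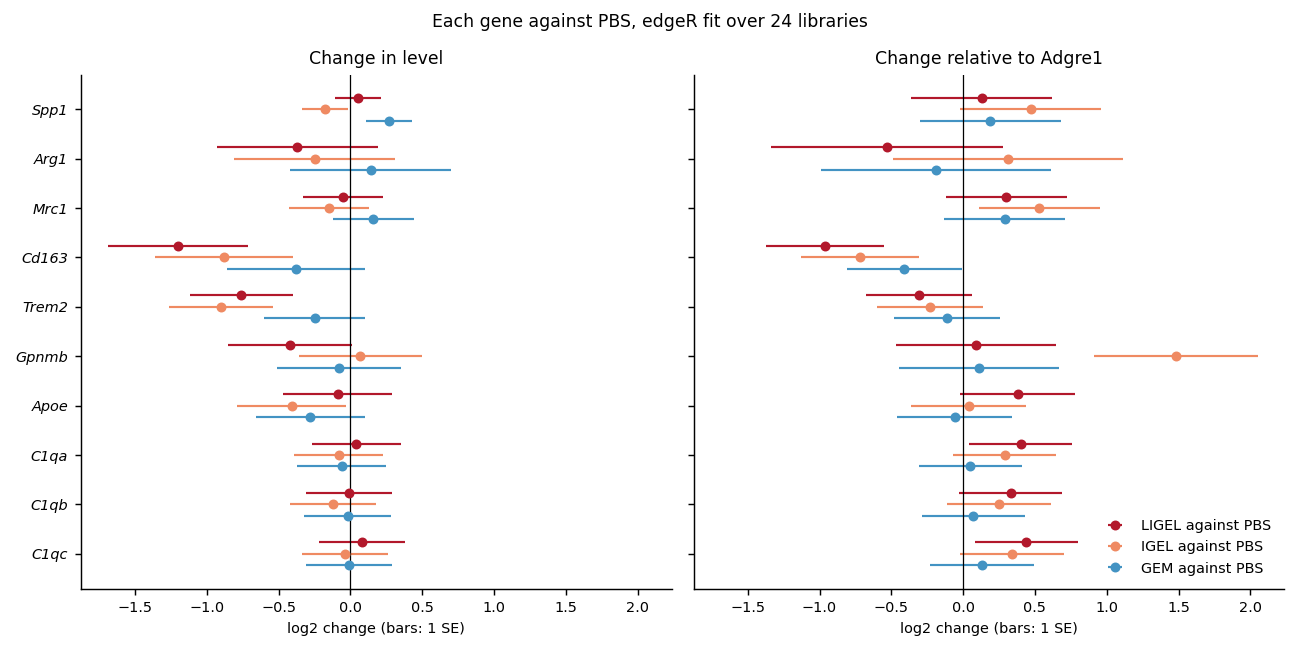
Fitted log2 change of each gene against PBS with its standard error, in LIGEL, IGEL and GEM, as a level (TMM-scaled) and relative to Adgre1. Cd163 lies farthest below 0 in LIGEL in both panels, at -1.20 and -0.96, and no member passed the adjusted threshold.

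Cd163 and Mrc1 are scavenging receptors: Cd163 clears haemoglobin bound to haptoglobin, and Mrc1 takes up mannose-bearing glycoproteins and collagen fragments. Cd163 had a lowest, median and highest level of 4.45, 9.15 and 15 CPM in LIGEL, 2.5, 9.08 and 30.2 CPM in IGEL, 7.77, 12.1 and 33.9 CPM in GEM and 8.32, 17.6 and 41.9 CPM in PBS. All 6 LIGEL tumours lay below the PBS median, though the lowest PBS tumours lay among them. The fitted log2 change was -1.20 (SE 0.49, n = 6 each, edgeR adjusted p = 0.176) in LIGEL, -0.88 (SE 0.48, adjusted p = 0.369) in IGEL and -0.38 (SE 0.48, adjusted p = 0.849) in GEM. In a bulk tumour, fewer cells of a type and less RNA per cell cannot be told apart. The Cd163 change in LIGEL was -1.06 without PBS replicate 5 (edgeR adjusted p = 0.325) and -1.02 when the libraries in columns A1 to A3 were left out (adjusted p = 0.508). In IGEL it was -1.44 without IGEL replicate 5, the highest of that group. With limma voom and sample quality weights the Cd163 change was smaller, at -0.58 in LIGEL and -0.24 in IGEL, and it was 0.14 in GEM. The size of the Cd163 change therefore depended on the tool.

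Lyve1, which marks lymphatic vessels and some resident macrophages and was among the genes most like Cd163, averaged 9.5 ± 10.6 CPM in LIGEL and 26.8 ± 18.8 CPM in PBS (SD, n = 6 each), a log2 change of -1.50 (edgeR adjusted p = 0.244). The 4 lymphatic markers summed to 121 to 156 CPM in LIGEL and 106 to 188 CPM in PBS, and the 11 fibroblast markers to 5980 to 14500 CPM in LIGEL and 5170 to 35800 CPM in PBS. By gene, 1 lymphatic marker was positive and 3 negative in LIGEL (median log2 change -0.91). Pdpn, at 0.41, had the highest level of the 4, and Prox1 was at -1.64. Of the fibroblast markers, 1 was positive and 10 negative (median -0.67). Without PBS replicate 5 the LIGEL medians were -0.57 for the lymphatic and -0.83 for the fibroblast markers. The part of lymphatic cells and fibroblasts in the Cd163 values was not tested. Mrc1 was close between groups: 144, 197 and 238 CPM in LIGEL, 107, 169 and 288 CPM in IGEL, 134, 236 and 299 CPM in GEM and 88.6, 162 and 365 CPM in PBS, as lowest, median and highest. Its log2 change was -0.05 (SE 0.28) in LIGEL, -0.15 (SE 0.28) in IGEL and 0.16 in GEM, with edgeR adjusted p-values of 0.803 and above. The groups overlap. The lowest PBS tumour is the acinar-rich replicate 5, and the other 5 PBS tumours had 151 to 365 CPM. Without the libraries in columns A1 to A3 the Mrc1 value in GEM was -0.11, and without these and PBS replicate 5 it was -0.25.

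Trem2, the lipid-sensing receptor, had 10, 12.8 and 16.7 CPM as lowest, median and highest in LIGEL, 6.75, 10.5 and 21.2 CPM in IGEL, 9.32, 14.6 and 34.6 CPM in GEM and 11.3, 16.2 and 47.4 CPM in PBS. In LIGEL and in IGEL, 5 of 6 tumours each lay below the PBS median, and the groups overlap. The log2 change was -0.76 (SE 0.36, n = 6 each, edgeR adjusted p = 0.231) in LIGEL, -0.90 (SE 0.36, adjusted p = 0.306) in IGEL and -0.25 (SE 0.35, adjusted p = 0.865) in GEM. Without PBS replicate 5 the LIGEL value was -0.89 (edgeR adjusted p = 0.241), with all 6 LIGEL tumours below the PBS median. Without PBS replicate 1, the highest PBS tumour, it was -0.37 in LIGEL and -0.51 in IGEL, so the size of the Trem2 difference rests in part on that library.

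Gpnmb, induced in lipid-laden macrophages and also a pigment-cell gene, ran 8.12, 20.6 and 31.3 CPM in LIGEL, 15.8, 22.4 and 63.9 CPM in IGEL, 13.3, 20.5 and 53.8 CPM in GEM and 9.65, 23.1 and 64.5 CPM in PBS, as lowest, median and highest. The group medians differ by less than the spread within any group, and PBS replicate 5 is the lowest PBS tumour. The Gpnmb log2 change was -0.42 (SE 0.43) in LIGEL, 0.07 (SE 0.43) in IGEL and -0.08 in GEM, with edgeR adjusted p-values of 0.598 and above. Without columns A1 to A3 it was -0.78 in LIGEL, -0.34 in IGEL and 0.02 in GEM, and without these and PBS replicate 5 it was -0.94 in LIGEL and -0.49 in IGEL. Without PBS replicate 1 alone, the highest PBS tumour, it was 0.02 in LIGEL, 0.50 in IGEL and 0.36 in GEM. The negative Gpnmb values in LIGEL and GEM therefore rest on that tumour. Of the 5 pigment-cell markers, Tyr and Tyrp1 were at 0 in all 24 libraries and Dct in 23. Pmel (0.246 to 1.24 CPM) and Mitf (11.7 to 22.7 CPM) were detected in every library.

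Apoe, the lipoprotein ligand by which macrophages export cholesterol, ran 386, 619 and 725 CPM in LIGEL, 177, 364 and 893 CPM in IGEL, 336, 414 and 1020 CPM in GEM and 213, 667 and 1010 CPM in PBS, as lowest, median and highest. The groups overlap, and IGEL and GEM have the lower medians. The log2 change was -0.09 (SE 0.38, n = 6 each, edgeR adjusted p = 0.92) in LIGEL, -0.41 (SE 0.38, adjusted p = 0.591) in IGEL and -0.28 (adjusted p = 0.858) in GEM. Hepatocytes also make Apoe, and their marker Alb was at most 2.9 CPM in any library.

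The C1q genes encode the chains of the C1q molecule, which holds all of them in equal number. C1qa had 164, 200 and 240 CPM as lowest, median and highest in LIGEL, 65.4, 165 and 303 CPM in IGEL, 134, 159 and 342 CPM in GEM and 121, 188 and 316 CPM in PBS. LIGEL tumours were the most alike, and all groups overlap. The C1qa log2 change was 0.04 (SE 0.31) in LIGEL, -0.08 in IGEL and -0.06 in GEM (edgeR adjusted p = 0.958, 0.919 and 0.962). C1qb ranged over 141 to 215 CPM in LIGEL, 63.5 to 269 CPM in IGEL, 130 to 322 CPM in GEM and 114 to 285 CPM in PBS. C1qc ranged over 128 to 177 CPM in LIGEL, 51.9 to 233 CPM in IGEL, 104 to 256 CPM in GEM and 94.4 to 247 CPM in PBS. The changes against PBS lay between -0.12 and 0.08 for both genes in the 3 treated groups.

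The chains kept a near-constant proportion while C1qa itself spanned 5.24-fold. C1qb counts were 0.823 to 1.03 of C1qa counts over the 24 tumours, with a coefficient of variation of 5.36%. C1qc counts were 0.679 to 0.85 of C1qa counts, with a coefficient of variation of 5%. For 6 of the other members the ratio to C1qa varied more, with a coefficient of variation of 26.6% for Apoe, 34% for Trem2, 36.3% for Mrc1, 46.8% for Spp1, 61.6% for Cd163 and 97.3% for Arg1. These are descriptions with no test. The Cd163 to C1qa count ratio had a median of 0.0499 in LIGEL, 0.0659 in IGEL, 0.0692 in GEM and 0.131 in PBS, and the Trem2 to C1qa ratio 0.064 in LIGEL, 0.0745 in IGEL, 0.096 in GEM and 0.112 in PBS.

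Spp1 had 575, 663 and 730 CPM as lowest, median and highest in LIGEL, 381, 597 and 714 CPM in IGEL, 568, 794 and 897 CPM in GEM and 382, 658 and 774 CPM in PBS. The groups overlap, and GEM has the highest median. PBS replicate 5 is the lowest PBS tumour, and the other 5 had 602 to 774 CPM. The log2 change was 0.05 (SE 0.16, edgeR adjusted p = 0.894) in LIGEL, -0.18 (SE 0.16, adjusted p = 0.572) in IGEL and 0.27 (SE 0.16, adjusted p = 0.804) in GEM. The GEM value was 0.14 without PBS replicate 5, 0.10 without columns A1 to A3, which hold 3 of its 6 tumours, and 0 without both. Osteopontin is also made by epithelial and stromal cells, and ductal and tumour epithelial markers summed to 952 to 1120 CPM in LIGEL, 573 to 1410 CPM in IGEL, 1000 to 1430 CPM in GEM and 797 to 2080 CPM in PBS. Krt8 and Krt18 had the highest levels among these 11 markers, with medians of 529 and 300 CPM over the 24 libraries. By gene, the median log2 change of the 11 was -2.28 in LIGEL (3 positive and 8 negative), -1.73 in IGEL (2 and 9) and -0.52 in GEM (4 and 7). The medians without PBS replicate 5 were -1.98, -1.34 and -0.35. The part of epithelial and stromal cells in the Spp1 level was not tested.

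Arg1 was a further member in which single tumours decided the group value. It had 47.1, 87.2 and 110 CPM as lowest, median and highest in LIGEL, 29.7, 88.2 and 142 CPM in IGEL, 60.9, 121 and 178 CPM in GEM and 3.85, 77.8 and 340 CPM in PBS. The lowest and the highest of all 24 tumours are both PBS tumours, the acinar-rich replicate 5 and replicate 6, and the next lowest PBS tumour had 52.3 CPM. The log2 change was -0.37 (SE 0.56, edgeR adjusted p = 0.729) in LIGEL, -0.25 (SE 0.56, adjusted p = 0.842) in IGEL and 0.14 (SE 0.56, adjusted p = 0.952) in GEM. Without PBS replicate 6, the tumour at 340 CPM, the values were 0.47 in LIGEL, 0.59 in IGEL and 0.97 in GEM, so the sign in LIGEL and IGEL rests on that tumour. Without PBS replicate 5 they were -0.63, -0.50 and -0.13. The highest GEM tumours, at 178, 154 and 142 CPM, are its replicates in columns A1 to A3, and without these columns the GEM value was -0.51.

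Between treated groups no member was called either, with 0% of all genes called in each of the 3 comparisons. In IGEL against GEM, 1 member (Spp1) and 1.58% of all genes had an unadjusted edgeR p under 0.05. In LIGEL against GEM, 0 members and 3.16% of genes did, and in LIGEL against IGEL 0 members and 1.26%. DESeq2 and limma voom called 0 genes in these comparisons. Spp1 was the nearest, with a log2 change of -0.45 (SE 0.16, n = 6 each, edgeR adjusted p = 1) in IGEL against GEM, where all 6 IGEL tumours lay below the GEM median.

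Adgre1 had 34.2, 43.9 and 59.3 CPM as lowest, median and highest in LIGEL, 12.4, 45.4 and 79.6 CPM in IGEL, 34.4, 50.7 and 79.1 CPM in GEM and 29, 53 and 137 CPM in PBS. IGEL replicate 1 is its lowest tumour and PBS replicate 1 its highest. The log2 change of Adgre1 was -0.49 (SE 0.37, n = 6 each, edgeR adjusted p = 0.453) in LIGEL, -0.48 (SE 0.37, adjusted p = 0.505) in IGEL and -0.28 (SE 0.37, adjusted p = 0.853) in GEM. Over all tested genes, the median log2 change relative to Adgre1 was 0.11 in LIGEL, 0.56 in IGEL and -0.02 in GEM against PBS. Without the libraries in columns A1 to A3, which hold IGEL replicate 1, it was 0.05 in LIGEL, 0.05 in IGEL and -0.07 in GEM.

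Relative to Adgre1, no member was called in LIGEL, IGEL or GEM against PBS (0%, 0% and 0% of all genes called). Among the treated groups, too, 0 members and 0% of genes were called. At an unadjusted edgeR p under 0.05 there were 1 member (Cd163) and 7.44% of genes in LIGEL, 1 member (Gpnmb) and 12.5% of genes in IGEL, and 0 members and 1.17% of genes in GEM against PBS. By sign, 7 ratios were positive and 3 negative in LIGEL (median 0.22), 8 and 2 in IGEL (0.30) and 6 and 4 in GEM (0.06). Without the libraries in columns A1 to A3 they were 6 and 4 in LIGEL (0.08), 5 and 5 in IGEL (0.05) and 4 and 6 in GEM (-0.01), and without PBS replicate 5 the LIGEL median was 0.08. The count ratio of Cd163 to Adgre1 had a lowest, median and highest value of 0.123, 0.188 and 0.287 in LIGEL, 0.13, 0.239 and 0.379 in IGEL, 0.201, 0.271 and 0.564 in GEM and 0.11, 0.42 and 0.645 in PBS. All 6 LIGEL and all 6 IGEL ratios lay below the PBS median, and the groups overlap. The log2 change of the ratio was -0.96 (SE 0.41, edgeR adjusted p = 0.478) in LIGEL, -0.72 (SE 0.41, adjusted p = 0.361) in IGEL and -0.41 (SE 0.4, adjusted p = 1) in GEM.

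The C1q genes had more counts per Adgre1 count in LIGEL and IGEL than in PBS in most tumours, without passing the test. C1qc over Adgre1 ran 2.62, 3.56 and 4.24 in LIGEL, 2.75, 3.21 and 4.19 in IGEL, 2.22, 2.77 and 3.74 in GEM and 1.8, 2.68 and 3.29 in PBS, as lowest, median and highest. All 6 IGEL and 5 of 6 LIGEL ratios lay above the PBS median. The log2 change was 0.44 (SE 0.36, edgeR adjusted p = 1) in LIGEL and 0.34 (SE 0.36, adjusted p = 0.505) in IGEL, where the median of all genes was 0.56. Divided by Csf1r, the LIGEL changes turned negative, at -0.26 for C1qa, -0.32 for C1qb and -0.21 for C1qc. They were also below 0 with Cd68 (-0.08, -0.13 and -0.01) or the core macrophage genes (-0.08, -0.13 and -0.03) as the denominator. The median of all genes in LIGEL shifted too, from 0.11 with Adgre1 to -0.44 with Csf1r, -0.24 with Cd68 and -0.25 with the core genes. The C1q genes lay above that median with each denominator.

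Trem2 over Adgre1 had medians of 0.277 in LIGEL, 0.277 in IGEL, 0.317 in GEM and 0.348 in PBS, a log2 change of -0.31 (SE 0.37) in LIGEL, against -0.76 for its level. Apoe over Adgre1 had medians of 13.3 in LIGEL, 10.9 in IGEL, 9.31 in GEM and 9.28 in PBS, and Mrc1 over Adgre1 4.43 in LIGEL, 3.85 in IGEL, 4.4 in GEM and 3.28 in PBS. Spp1 over Adgre1 had medians of 14.8 in LIGEL, 12.7 in IGEL, 15.1 in GEM and 10.8 in PBS. Arg1 over Adgre1 had medians of 1.78 in LIGEL, 1.53 in IGEL, 2.1 in GEM and 1.04 in PBS. All 6 LIGEL ratios lay above the PBS median, while the fitted log2 change was -0.53 (SE 0.81, edgeR adjusted p = 1), or 0.78 without PBS replicate 6. Gpnmb over Adgre1 gave a log2 change of 1.48 (SE 0.57, n = 6 each, edgeR adjusted p = 0.361) in IGEL against PBS, but only 2 of 6 IGEL ratios lay above the PBS median. Its lowest, median and highest ratios were 0.286, 0.377 and 5.16 in IGEL and 0.181, 0.48 and 0.715 in PBS. The top value is IGEL replicate 1, the tumour with the least Adgre1, and over all settings tried the change ran between 0.02 and 1.69.

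**Figure D3:**
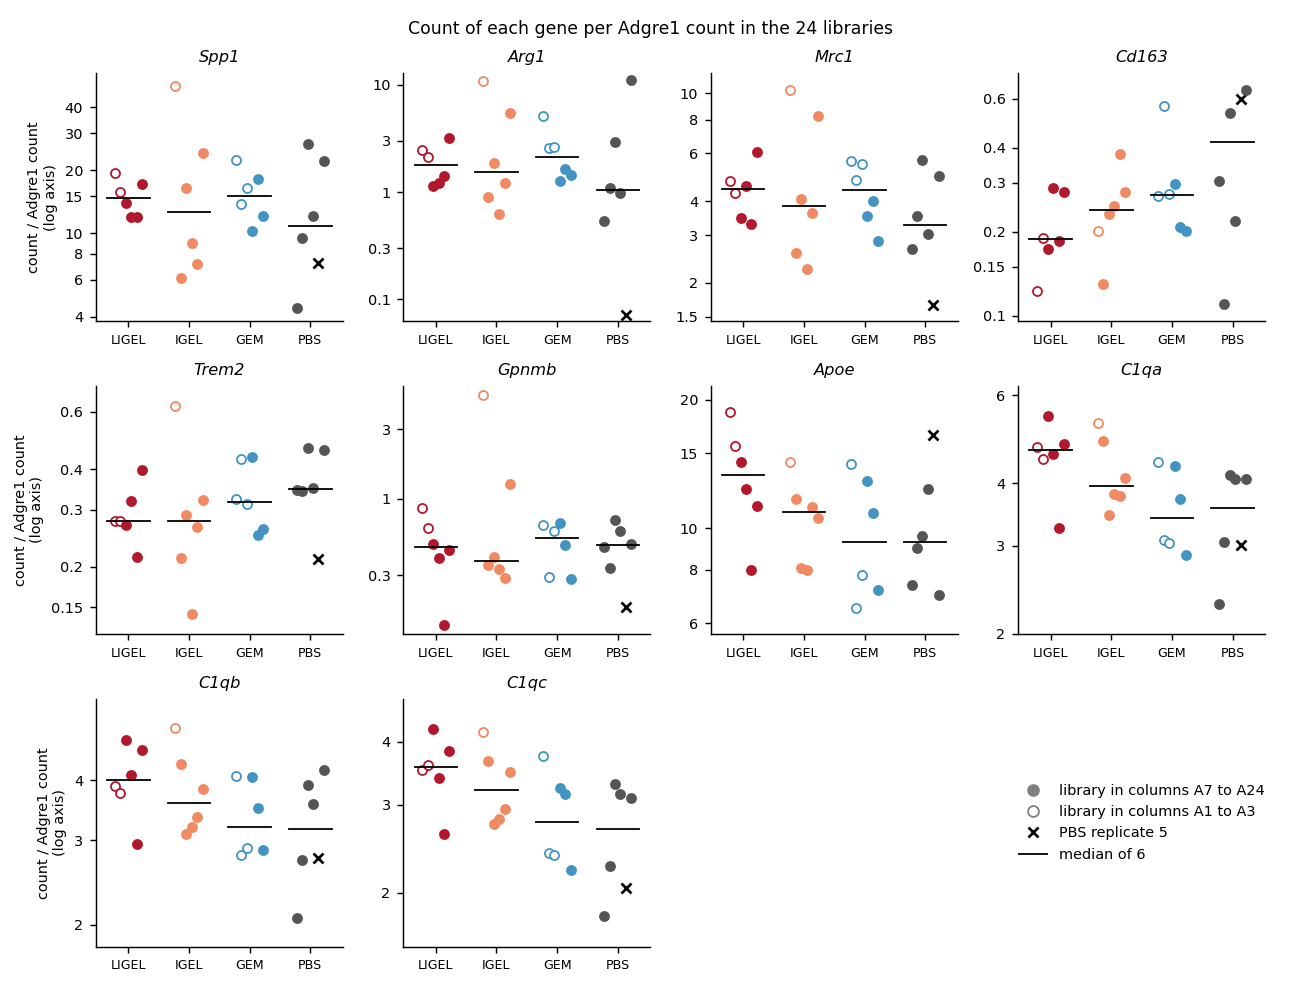
Count of each gene over the count of Adgre1 in the same library, on a log axis, by group (LIGEL, IGEL, GEM and PBS from left to right), with a point for each library, open for columns A1 to A3, a cross for PBS replicate 5 and a bar at the group median. Cd163 has a median of 0.188 in LIGEL against 0.42 in PBS, and the Gpnmb panel has 1 IGEL tumour at 5.16.

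The call for Cd163 depended on which macrophage gene it was divided by. Csf1r encodes the receptor for the macrophage growth factor M-CSF. Unlike Adgre1, it had a higher mean in LIGEL, at 192 ± 42.5 CPM against 152 ± 54.3 CPM in PBS (SD, n = 6 each). The log2 change of Csf1r was 0.33 (edgeR adjusted p = 0.534). Of the 12 core macrophage genes, 8 were positive in LIGEL and 4 negative, Adgre1 (-0.49) among the negative (median 0.13). Without PBS replicate 5 they were 6 and 6 (median 0.06). The Cd163 to Csf1r count ratio was 0.0286, 0.0485 and 0.069 in LIGEL, 0.0357, 0.077 and 0.119 in IGEL, 0.0652, 0.0807 and 0.183 in GEM and 0.0454, 0.162 and 0.254 in PBS, as lowest, median and highest. LIGEL and PBS overlap only at the low end of PBS. Its log2 change in LIGEL was -1.59 (SE 0.38, edgeR adjusted p = 0.0208), the only member value called in any setting tried, where 5.01% of all genes were called and the median of all genes was -0.44. Divided by Cd68, the change was -1.55 (edgeR adjusted p = 0.131, 0% of all genes called), and by the mean of the 12 core macrophage genes -1.45 (adjusted p = 0.0525, 0.623% of all genes called).

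The Trem2 to Csf1r ratio was 0.0571, 0.0645 and 0.0853 in LIGEL and 0.0898, 0.13 and 0.193 in PBS, so that every LIGEL tumour lay below every PBS tumour. How many of all genes are without overlap on this scale was not counted, so the separation cannot be called particular to Trem2. The Trem2 log2 change was -0.99 (SE 0.31, n = 6 each, edgeR adjusted p = 0.0549), which missed the threshold. The median of all genes on this scale was -0.44, and 5.01% of them were called. C1qa over Csf1r had medians of 1.06 in LIGEL, 1.23 in IGEL, 1.09 in GEM and 1.27 in PBS, with a log2 change of -0.26 (SE 0.27, edgeR adjusted p = 0.602) in LIGEL.

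Across tumours, 7 of the 10 members followed Adgre1 and 3 did not. Log2 CPM was correlated with that of Adgre1 over the 24 samples, with two-sided p-values from 100000 permutations adjusted over all tested genes. By this measure 23.5% of all genes pass. Pearson's r was 0.89 for C1qa, 0.89 for C1qb, 0.88 for C1qc, 0.80 for Apoe and 0.77 for Trem2, each with a permutation p of 1e-05, the smallest that this number of permutations gives, and an adjusted p of 0.000302. Spearman's rho was 0.83 for C1qa (adjusted permutation p = 0.000428), 0.75 for Apoe (adjusted permutation p = 0.00114) and 0.67 for Trem2 (adjusted permutation p = 0.00346). Cd163 gave r = 0.69 (permutation p = 0.00017, adjusted 0.00225) and rho = 0.53 (adjusted permutation p = 0.0306). Mrc1 gave r = 0.54 (permutation p = 0.00604, adjusted 0.0306) and rho = 0.49 (adjusted permutation p = 0.0497). Spp1 (r = -0.07, adjusted permutation p = 0.838), Arg1 (r = -0.24, adjusted permutation p = 0.379) and Gpnmb (r = 0.01, adjusted permutation p = 0.986) did not pass.

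**Figure D4:**
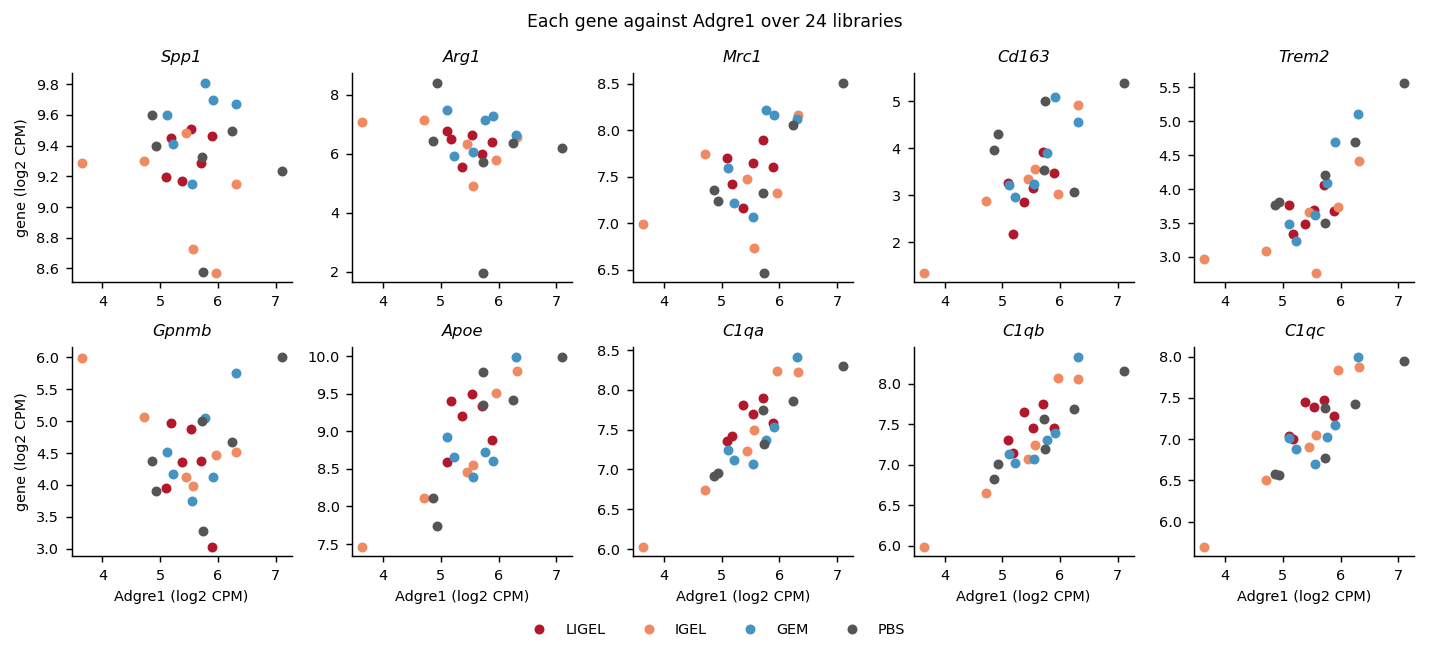
Level of each member against Adgre1 in the 24 libraries, both in log2 CPM, with colours for the 4 groups. C1qa, C1qb and C1qc were higher where Adgre1 was higher (r = 0.89, 0.89 and 0.88), while Spp1, Arg1 and Gpnmb (r = -0.07, -0.24 and 0.01) show no trend.

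Without IGEL replicate 1 and PBS replicate 1, the tumours farthest from the Adgre1 median, r was 0.83 for C1qa, 0.83 for C1qb, 0.79 for C1qc, 0.71 for Apoe and 0.68 for Trem2, which still pass, as do 7.32% of all genes. Mrc1 (r = 0.37, adjusted permutation p = 0.306) and Cd163 (r = 0.42, adjusted permutation p = 0.227) no longer did. Leaving out the extremes of Adgre1 narrows its range, and the share of all genes that pass fell from 23.5%. The share of genes with a higher r went from 15.3% to 19.5% for Mrc1 and from 6.86% to 16.4% for Cd163. Whether these 2 relations rest on those tumours therefore cannot be told from this step. In the 18 libraries outside columns A1 to A3, where 11.3% of all genes pass, r was 0.77 for Trem2 (adjusted permutation p = 0.0059), 0.54 for Cd163 (adjusted permutation p = 0.113) and 0.53 for Mrc1 (adjusted permutation p = 0.115). In the 6 libraries of columns A1 to A3, where no test was made, r was 0.84 for Trem2, 0.86 for Cd163 and 0.90 for Mrc1. There it was also 0.85 for Spp1, 0.01 for Arg1 and -0.83 for Gpnmb. In the other 18 libraries r was -0.10 for Spp1, -0.19 for Arg1 and 0.44 for Gpnmb. With group means removed, where 18.8% of all genes pass, r was 0.76 for Trem2, 0.67 for Cd163 and 0.55 for Mrc1 (adjusted permutation p = 0.0931). Without PBS replicate 5, r was 0.64 for Mrc1 (adjusted permutation p = 0.0043) and 37% of all genes pass. With library totals in place of TMM, 14% of all genes pass.

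The genes whose levels were most like each member over the 24 tumours were named by Spearman's rho, as a description with no p. C1qa was most like C1qb (rho = 0.99) and C1qc (rho = 0.98), and next like Slc29a3 (0.96), Cx3cr1 (0.95) and Aoah (0.95) outside the set. Apoe was most like Fam213b (0.92), Ms4a7 (0.89) and Nlrc4 (0.88), and had rho = 0.85 with C1qa. Trem2 was most like Tbxas1 (0.87), Btk (0.86) and Gusb (0.83), and Cd163 like Cbr2 (0.89), Lyve1 (0.86) and Gng7 (0.83). Mrc1 was most like Ifngr2 (0.87), Rab11fip5 (0.84) and Rab8b (0.84). Gpnmb was most like Lamp1 (0.83), a lysosomal membrane protein, Agap1 (0.79) and Dip2b (0.79). Spp1 was most like Irak3 (0.77), Spidr (0.76) and Utp20 (0.70), and Arg1 like Fnip2 (0.86), Srgn (0.82) and Psmd8 (0.82). Spp1 and Arg1 had rho = 0.60 with each other, and Trem2 had 0.71 with Mrc1 and 0.65 with Cd163.

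**Figure D5:**
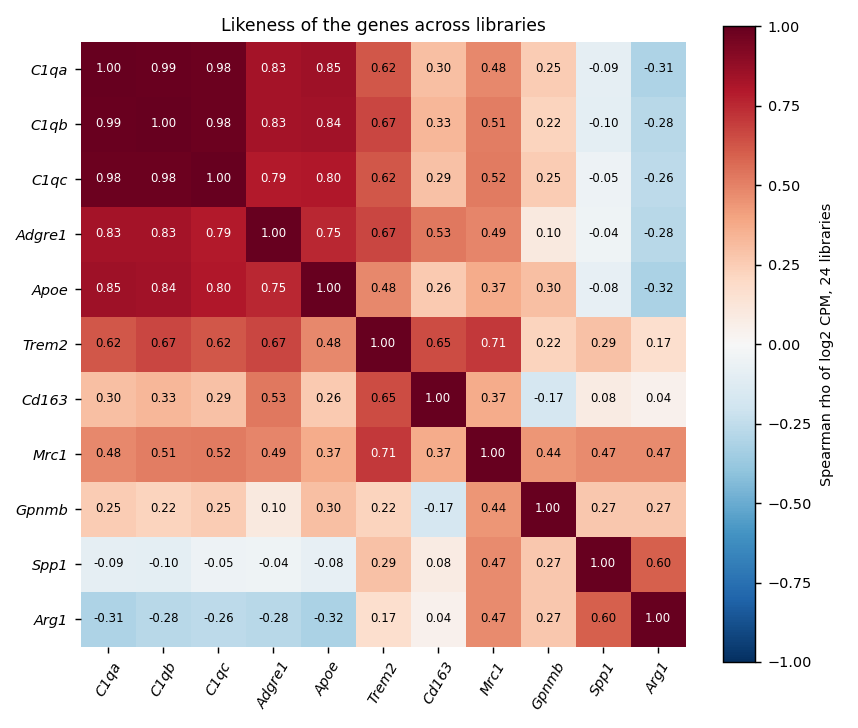
Spearman's rho of log2 CPM between each pair of the 10 members and Adgre1 over the 24 libraries, as a colour grid. The C1q genes form the tightest block (0.98 to 0.99), with Apoe at 0.85 to C1qa, and Spp1 with Arg1 (0.60) lie outside it.

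Genes that work with the members gave no call with edgeR in the main fit. There 0% of all genes were called in LIGEL, IGEL and GEM against PBS, so the lack of calls is not particular to these lists. The lists had been chosen with earlier results of these data known, and are described by their counts and median log2 change, against a median of -0.03 over all genes in LIGEL and -0.02 in IGEL and in GEM. Of 22 other alternative activation genes tested, 9 had a positive and 13 a negative log2 change in LIGEL (median -0.13), 10 and 12 in IGEL (-0.13) and 15 and 7 in GEM (0.15). The medians without PBS replicate 5 were -0.29 in LIGEL, -0.08 in IGEL and 0.07 in GEM. Marco, a scavenger receptor, averaged 0.423 ± 0.449 CPM in LIGEL and 3.75 ± 3.09 CPM in PBS (SD, n = 6 each), a log2 change of -3.14 (SE 0.81, edgeR adjusted p = 0.124). Folr2, a folate receptor of resident macrophages, averaged 1.67 ± 0.514 CPM in LIGEL and 3.85 ± 2.24 CPM in PBS (-1.20, edgeR adjusted p = 0.131). Il10, an anti-inflammatory cytokine, averaged 2.32 ± 1.56 CPM in LIGEL and 1.06 ± 0.504 CPM in PBS (1.11, edgeR adjusted p = 0.169). Without PBS replicate 5, Marco was at -3.33 (edgeR adjusted p = 0.0533). Of 12 classical activation genes, 10 were positive in LIGEL (median 0.35), 10 in IGEL (0.40) and 11 in GEM (0.35). With PBS replicate 5 left out, the medians were 0.19 in LIGEL, 0.19 in IGEL and 0.13 in GEM, with 9, 10 and 9 positive. Cxcl9, an interferon-induced chemokine, averaged 24.2 ± 17.5 CPM in LIGEL and 10.2 ± 3.77 CPM in PBS (1.25, edgeR adjusted p = 0.256).

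Of 20 lipid and lysosomal genes tested, 10 were positive and 10 negative in LIGEL (median -0.04), 8 and 12 in IGEL (-0.10) and 11 and 9 in GEM (0.04), with medians of -0.08, -0.12 and -0.06 without PBS replicate 5. Cd36, a fatty acid and oxidised lipoprotein receptor, averaged 5.94 ± 2.64 CPM in LIGEL and 26.3 ± 25.1 CPM in PBS (-2.14, SE 0.58, edgeR adjusted p = 0.124). Npc2, which moves cholesterol out of lysosomes, averaged 552 ± 97.8 CPM in LIGEL and 363 ± 110 CPM in PBS (0.60, edgeR adjusted p = 0.127). Cd36 is also expressed by adipocytes and capillary endothelium, and 6 endothelial markers summed to 236 to 329 CPM in LIGEL and 193 to 540 CPM in PBS. By gene, 1 endothelial marker was positive and 5 negative in LIGEL (median log2 change -0.66). Without PBS replicate 5 they were 0 and 6 (median -0.21). The 4 adipocyte markers summed to at most 0.134 CPM in LIGEL and to at most 10.7 CPM in PBS, and Cd36, Adipoq and Plin1 all had their highest level in PBS replicate 5. Without that library the Cd36 change was -1.59 (edgeR adjusted p = 0.176). The part of these cells in the Cd36 values was not tested. The 7 genes of Trem2 signalling had medians of 0.08 in LIGEL, -0.05 in IGEL and 0.11 in GEM, or 0 in LIGEL, -0.15 in IGEL and 0.02 in GEM without PBS replicate 5. Among them the kinase Syk averaged 45.4 ± 8.69 CPM in LIGEL and 41.5 ± 14.5 CPM in PBS.

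Lrp1, a large endocytic receptor that binds Apoe, averaged 1780 ± 335 CPM in LIGEL and 1730 ± 746 CPM in PBS (SD, n = 6 each). Of 9 osteopontin receptor genes, 7 were positive in each treated group (medians 0.33 in LIGEL, 0.42 in IGEL and 0.27 in GEM). Leaving out PBS replicate 5 gave medians of 0.18 in LIGEL, 0.20 in IGEL and 0.12 in GEM. The integrin chain Itga8 averaged 0.523 ± 0.222 CPM in LIGEL and 2.37 ± 2.04 CPM in PBS (-2.16, edgeR adjusted p = 0.124). Itgb3, another integrin chain, averaged 210 ± 20.8 CPM in LIGEL and 116 ± 64.2 CPM in PBS (0.86, edgeR adjusted p = 0.185). Of 10 arginine metabolism genes, 3 were positive and 7 negative in each treated group (medians -0.26, -0.29 and -0.12 in LIGEL, IGEL and GEM, or -0.27, -0.20 and -0.02 without PBS replicate 5). The arginine transporter Slc7a2 averaged 22 ± 5.2 CPM in LIGEL and 53.2 ± 50.6 CPM in PBS (-1.27, edgeR adjusted p = 0.134), and Odc1, which makes polyamines, 258 ± 31.3 CPM in LIGEL and 323 ± 56.7 CPM in PBS (-0.32, edgeR adjusted p = 0.197). The Slc7a2 change without PBS replicate 5 was -0.72 (edgeR adjusted p = 0.355). Of 8 partners of C1q, among them C1 proteases and their inhibitor, 1 was positive and 7 negative in LIGEL (median -0.70), 1 and 7 in IGEL (-0.35) and 2 and 6 in GEM (-0.38). C4b, which C1 cleaves, averaged 113 ± 74.1 CPM in LIGEL and 418 ± 489 CPM in PBS (-1.89, edgeR adjusted p = 0.182). The PBS mean without replicate 5 was 242 CPM and the change -1.10 (edgeR adjusted p = 0.494).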

How the data were processed

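The authors deposited raw read counts per gene for 24 libraries, with no normalization. Alignment and counting tools HISAT2 and featureCounts (Subread) and build mm10 are named without versions, per the submitters' processing notes. Strandedness and the annotation release are not given in the sources used here. Reads from overlapping or antisense genes are therefore not separable. Tumours were frozen and RNA was extracted with Trizol, per the labels' protocols.

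The tools were edgeR 4.0.16, limma 3.58.1 and DESeq2 1.42.0 in R 4.3.3. The filterByExpr filter (min.count 10, min.total.count 15) kept 19253 genes, and the genes it dropped held 0.0666% of counts. All 24 samples entered 1 quasi-likelihood fit with TMM factors and a mean per group. A second fit scaled each library to its Adgre1 count. The call was an adjusted p under 0.05 (Benjamini-Hochberg, within a contrast). CPM and RPKM use TMM-scaled totals and the gene length in the table, and log2 CPM adds a prior count of 2. Depth was 27.1 to 40.5 M counts per library.

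The members and lists were chosen with earlier results of these data known. Named were the 10 members and Adgre1, up to 3 genes of each list with the smallest p against PBS, and the 3 genes most like each member. Lyve1 met the last rule. Csf1r, Cd68 and Alb were named as denominators or markers. Scripts were tested on simulated data. The smallest median chi-square per gene between libraries was 2.97, against 0.455 from counting alone, so no library was a copy of another.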

Additional observations from a re-analysis of the deposited data

Results flagged for a closer look

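In 12 of 84 groups of 6 tumours, 1 tumour stood apart from the others by Dixon's criterion (the gap to the nearest tumour over the range of the group). Chance flags about 1 in 20 groups of independent, normally distributed values. These are CPM and count ratios, and several of the genes move together, so that rate need not hold here. GEM replicate 4 accounts for 4 of them, with 1020 CPM of Apoe (next highest 487), 342 CPM of C1qa (185), 322 CPM of C1qb (168) and 256 CPM of C1qc (144). PBS replicate 6 had 340 CPM of Arg1, where the next PBS tumour had 85.3, and 11.1 Arg1 counts per Adgre1 count (next 2.94). IGEL replicate 1, the tumour with the least Adgre1, had 63.9 CPM of Gpnmb (next 33.3), a Gpnmb to Adgre1 ratio of 5.16 (next 1.27) and a Trem2 to Adgre1 ratio of 0.627 (next 0.322). GEM replicate 1 had an Arg1 to Adgre1 ratio of 5.17 (next 2.6), GEM replicate 2 a Cd163 to Adgre1 ratio of 0.564 (next 0.296) and IGEL replicate 5 30.2 CPM of Cd163 (next 11.7). What sets these tumours apart was not tested.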

How the results depend on the processing

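Each comparison of levels was repeated under 36 other settings and each comparison relative to Adgre1 under 34. These were other scalings, tools, filters, denominators, terms and left-out libraries. Leaving out PBS replicate 5 together with the A1 to A3 libraries was chosen after seeing the data. Of 4200 recomputed member values, 4079 stayed within 1 standard error of the reported value without a call, 120 moved further, 1 was called and 335 had the opposite sign. Many settings left out 1 library, often from a group not compared, where the value can hardly move. The share that stayed is therefore no measure of stability. With Csf1r as denominator 1 member, Cd163, was called in LIGEL against PBS. In every other setting of these fits 0 members were called on either scale. The replicate block, with replicate number as a paired term, gave 0 called members and 0 called genes. Same-numbered samples correlated between -0.59 and 0.71 in 36 pairs, and 6 of 24 samples were most like their own number. The median correlation was -0.06 for the same number and 0.02 for other numbers. No pairing by number was seen, though these values cannot exclude one. Scaling by library totals put the median of all genes at 0.10 in LIGEL, 0.08 in IGEL and 0.07 in GEM against PBS, where TMM gave -0.03, -0.02 and -0.02. The precision is that of 6 tumours a group, and Cd163 at -1.20 (SE 0.49) did not pass.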
